A study of Homo sapiens with 4 samples.

Results

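Integrins are the receptors by which epithelial cells hold on to the matrix around them, and the 10 genes described here encode the subunits most often found on epithelial cells: the alpha subunits ITGA2, ITGA3, ITGA5, ITGA6 and ITGAV and the beta subunits ITGB1, ITGB4, ITGB5, ITGB6 and ITGB8. They were selected by a list of gene symbols. No expression value enters that rule, but the list was chosen with earlier results of these data known. The genes are 10 of 53826 entities (genes and other annotated transcripts) measured by mRNA sequencing in 4 libraries of PK-1. This human pancreatic cancer cell line comes from a well-differentiated ductal adenocarcinoma. All 10 symbols were found in every library.

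The 4 libraries form 2 models of forced expression of SPRR1A, a small proline-rich protein of the cornified envelope of squamous epithelium, with 1 library for each condition. In the stable model, PK-1 cells were infected with a retroviral pMXs vector carrying FLAG-tagged SPRR1A or, as the control, the red fluorescent protein DsRed. In the transient model, PK-1 cells were transfected with a pCAG plasmid carrying FLAG-tagged SPRR1A or, as the control, green fluorescent protein (GFP). All 4 libraries share the PK-1 background, and the sources used here do not state that the stable lines were single clones. With 1 library for each condition there is no measure of replicate error, so no p-value is given and every difference below is a difference between 2 libraries.

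The deposited values are log2 of TPM, a level scaled to transcript length and to the library total. No value is below 0, so a listing at 0 (the floor) covers any TPM up to 1. Because TPM is per length, levels can be set side by side between genes. A difference was called past the threshold when it was over 2-fold, that is above 1 or below -1 on the log2 scale, and the number of reads in each library is unknown. A listing at 0 is not proof of absence in these files, since CD81, a tetraspanin made by most cells, was listed at 0 in all 4 libraries.

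The forced gene followed the labels. In the stable pair SPRR1A had a log2 TPM of 10.93 with the SPRR1A vector and 0.75 with DsRed, and in the transient pair 16.60 with the SPRR1A plasmid and 3.56 with GFP. In the transient SPRR1A library this transcript alone took 9.90% of the TPM total, which by arithmetic places every other entity 0.15 lower on the log2 scale, whereas it took 0.196% of the stable SPRR1A library. The epithelial label was checked against its markers: 6 of 6 ductal epithelial markers (KRT7, KRT8, KRT18, KRT19, EPCAM and CDH1) were above the floor, with a summed TPM of 18253 to 26470, whereas 0 of 4 leukocyte markers and 0 of 3 endothelial markers were. Of the acinar markers 1 of 3 (PRSS1) was above the floor, with a summed TPM of 1.56 to 3.62, and of the fibroblast markers 1 of 4 (COL1A1), with 3.88 to 6.14.

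An integrin is a pair of an alpha and a beta subunit, both spanning the membrane, and the pair decides which matrix protein is bound. ITGB1 pairs with many alpha subunits, whereas ITGB4 pairs only with ITGA6, and ITGAV pairs with several beta subunits. In the pancreatic duct, as in other simple epithelia, laminin-binding integrins anchor the cells to the basement membrane, and in carcinoma the same receptors serve adhesion, migration and the release of active TGF-beta.

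The members for which the control libraries of both models differed most were ITGA5, ITGAV and ITGA2, and their promoters are shown here for that reason. Each run holds 250 bases before the RefSeq start of the gene and its first transcribed base, 5′ to 3′ on the strand of the gene, in GRCh38.p14. Capitals mark the motifs searched on both strands, GGGCGG or CCGCCC (the GC box) and TGAGTCA or TGACTCA (the AP-1 element). The ITGA5 run is at chr12:54419266-54419516 on the minus strand, the ITGAV run at chr2:186589806-186590056 on the plus strand and the ITGA2 run at chr5:52989102-52989352 on the plus strand.
ITGA5: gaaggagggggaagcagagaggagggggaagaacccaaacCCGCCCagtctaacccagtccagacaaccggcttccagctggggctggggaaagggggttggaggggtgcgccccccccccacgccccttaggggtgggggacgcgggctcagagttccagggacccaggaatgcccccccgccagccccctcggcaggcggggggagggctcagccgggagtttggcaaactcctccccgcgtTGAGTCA
ITGAV: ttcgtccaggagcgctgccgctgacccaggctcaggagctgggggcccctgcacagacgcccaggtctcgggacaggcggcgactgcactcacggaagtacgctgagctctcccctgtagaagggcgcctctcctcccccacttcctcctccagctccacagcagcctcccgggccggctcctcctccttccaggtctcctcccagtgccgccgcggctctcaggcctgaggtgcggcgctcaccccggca
ITGA2: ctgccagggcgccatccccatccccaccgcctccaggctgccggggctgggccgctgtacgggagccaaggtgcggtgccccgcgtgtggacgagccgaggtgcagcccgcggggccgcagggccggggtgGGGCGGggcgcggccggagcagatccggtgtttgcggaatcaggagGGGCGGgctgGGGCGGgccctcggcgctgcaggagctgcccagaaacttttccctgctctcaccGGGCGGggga
The AP-1 letters stood in the ITGA5 promoter with their first base at position -6, and in 1 of the 8 members with a promoter sequence (the others being ITGA2, ITGA6, ITGAV, ITGB1, ITGB5, ITGB6 and ITGB8). The same letters were present in 4.90% of 27305 promoters, searched from 250 bases before the start to 50 bases after it. The GC box was present in 6 of the 8 members and in 44.5% of all promoters. ITGA2 held 4 GC boxes, ITGA5 held 1 with its first base at -210, and ITGAV held none in this window. The promoters also differed in base composition, with 70.8% G and C in ITGAV, 76.4% in ITGA2 and 30.0% in ITGB6, against a median of 57.6% over all promoters. A match of letters is a description of the sequence and not a site shown to be bound.

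The levels of the 10 genes spanned from a TPM of 812 to the floor. By mean log2 TPM over the 4 libraries the order was ITGB1, ITGA3, ITGA6, ITGA2, ITGB4, ITGB5, ITGAV, ITGB6, ITGA5 and ITGB8. The ranges over the 4 libraries overlapped for 3 pairs of neighbours, ITGA6 with ITGA2, ITGA2 with ITGB4, and ITGAV with ITGB6. ITGA6 was nevertheless above ITGA2 in 4 of 4 libraries, ITGA2 was above ITGB4 in 3, and ITGAV was above ITGB6 in 2. All other neighbours were apart in their ranges. The summed TPM of the 10 genes was 1918 with SPRR1A and 1756 with DsRed in the stable pair, and 1672 with SPRR1A and 2023 with GFP in the transient pair.

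**Figure D1:**
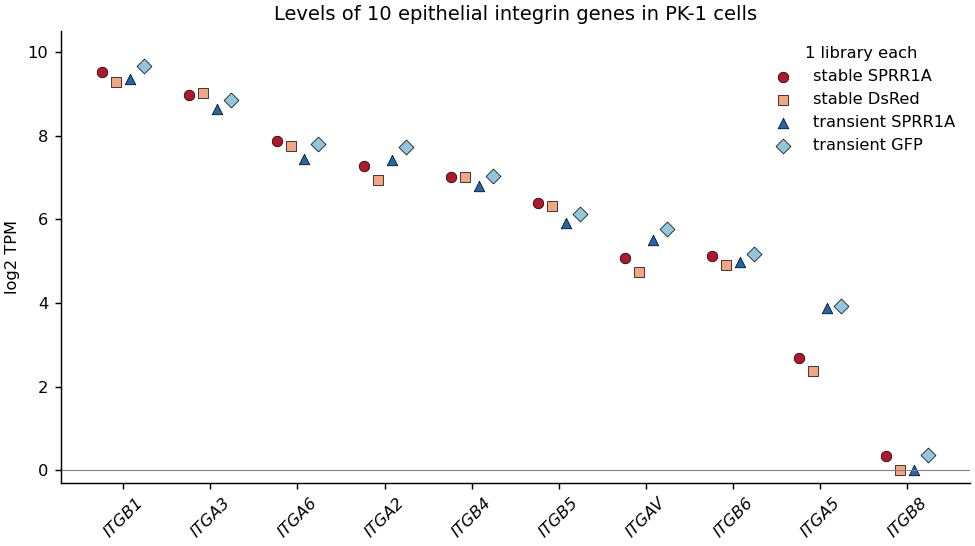
Log2 TPM of the 10 integrin genes in the 4 libraries, with 1 point for each library and genes in order of their mean. ITGB1 and ITGA3 lie highest in every library, ITGB8 lies at or near the floor of 0, and ITGA5 shows the widest spread, from 2.38 in stable DsRed cells to 3.93 in transient GFP cells.

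ITGB1, the beta subunit shared by the collagen, fibronectin and several laminin receptors (RefSeq gene position chr10:32900318-32958230 in GRCh38.p14, the build of all positions given here), was the highest member. In the stable pair its TPM was 735 with SPRR1A and 624 with DsRed, and in the transient pair 661 with SPRR1A and 812 with GFP. The SPRR1A library was thus the higher of its pair in the stable model and the lower in the transient model, with log2 differences of 0.23 and -0.30.

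The laminin receptors are built from ITGA3, which pairs with ITGB1, and from ITGA6, which pairs with ITGB1 or, in hemidesmosomes, with ITGB4. ITGA3 (chr17:50056110-50090481) had a TPM of 505 with SPRR1A and 522 with DsRed in the stable pair, and of 400.4 with SPRR1A and 464 with GFP in the transient pair. It was the most abundant alpha subunit in every library, and its SPRR1A library was slightly the lower of the pair in both models, with log2 differences of -0.05 and -0.21. ITGA6 (chr2:172427336-172506459) had a TPM of 234 with SPRR1A and 217 with DsRed, and of 175 with SPRR1A and 225 with GFP. Of the members it had, with ITGB8, the most negative transient log2 difference, -0.36, against 0.11 in the stable model. ITGB4 (chr17:75721459-75757818) was the steadiest gene, with a TPM of 129 in both stable libraries, and in the transient pair 112 with SPRR1A and 131 with GFP. Its stable log2 difference was -0.00 and its transient one -0.23. The locus of ITGB4 overlaps that of GALK1, a galactose-metabolising enzyme listed at a log2 TPM of 2.57 to 3.18, and whether reads were counted by strand is not given in the sources used here.

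ITGA2, the alpha subunit of the epithelial collagen receptor, pairs with ITGB1, and its promoter is shown above. Its TPM was 155 with SPRR1A and 122 with DsRed in the stable pair, and 172 with SPRR1A and 213 with GFP in the transient pair. Both transient libraries lay above both stable ones. SPRR1A minus control came to 0.34 on the log2 scale for the stable pair and -0.31 for the transient pair.

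ITGA5, the alpha subunit of the classical fibronectin receptor, was the lowest alpha subunit. Its TPM was 6.43 with SPRR1A and 5.20 with DsRed in the stable pair, and 14.7 with SPRR1A and 15.2 with GFP in the transient pair. The larger gap lay between the models, with a log2 difference of 1.55 between the control libraries and 1.19 between the SPRR1A libraries. Between SPRR1A and control the log2 difference was 0.31 (stable) and -0.05 (transient). GPR84-AS1, which overlaps the ITGA5 locus (chr12:54395261-54419266), was listed at 0 in all 4 libraries.

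ITGAV binds proteins with an RGD motif, such as vitronectin and the latent form of TGF-beta, and it pairs with ITGB5, ITGB6 and ITGB8 as well as with ITGB1. ITGAV (chr2:186590056-186680901) had a TPM of 33.7 with SPRR1A and 26.7 with DsRed in the stable pair, and of 45.2 with SPRR1A and 54.9 with GFP in the transient pair. Like ITGA2, it was higher in both transient libraries than in both stable ones, and its log2 differences were 0.34 and -0.28. ITGB5 (chr3:124761948-124901418), the vitronectin-receptor partner, showed the opposite order of the models, with a TPM of 84.5 (SPRR1A) and 80.1 (DsRed) in the stable pair and 60.7 (SPRR1A) and 69.9 (GFP) in the transient pair. ITGB6 (chr2:160099671-160200272), an epithelial subunit that with ITGAV activates latent TGF-beta, differed little, with a TPM of 35.0 (SPRR1A) and 29.99 (DsRed) in the stable pair and 31.8 (SPRR1A) and 36.4 (GFP) in the transient pair. The log2 differences were 0.08 and -0.20 for ITGB5 and 0.22 and -0.19 for ITGB6.

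ITGB8, the other TGF-beta-activating partner of ITGAV, sat at the edge of what these files resolve. It was above the floor in stable SPRR1A cells, with a TPM of 1.26, and in transient GFP cells, with 1.29, and at the floor in the other 2 libraries. The presence above the floor therefore did not go with SPRR1A. ITGB8-AS1, an antisense transcript that overlaps the ITGB8 locus (chr7:20329766-20415754), was above the floor in the same libraries, with a log2 TPM of 0.72 and 0.65, and was listed at 0 in the others.

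In the stable pair the epithelial integrin genes were within 2-fold of the DsRed control. None of the 10 genes passed the threshold, where 0.947% of 13310 did among entities that were above the floor with SPRR1A, with DsRed or with both. Among the 9835 well-expressed entities, those at a TPM of 5 or more on both sides of the pair, the share was 0.0915%. The SPRR1A library was the higher for 8 genes and the lower for 2, ITGA3 and ITGB4. It was also the higher for 64.4% of all well-expressed entities. The median log2 difference was 0.23, with a range of -0.05 to 0.34, beside a median of 0.06 and a 5th to 95th percentile of -0.20 to 0.34 over the well-expressed entities. Among the well-expressed members the largest differences were those of ITGA2 and ITGAV, which exceeded the differences of 94.97% and 94.9% of these entities. ITGA5 followed with 92.9%. ITGB8, at 0.33, was left out of this order because its DsRed level was at the floor. ITGA3 and ITGB4 stood on the lower side, with 24.3% and 34.6% of the entities below them.

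The transient pair also had no integrin gene past the threshold. The count was 0 of 10, where the share past it was 0.889% of 13717 entities above the floor with SPRR1A, GFP or both, and 0.0591% of 10154 well-expressed ones. All 10 genes were lower in the SPRR1A library than in the GFP library, with a median log2 difference of -0.26 and a range of -0.36 to -0.05. The same direction was shared by 94.1% of all well-expressed entities, whose median was -0.18 and whose 5th to 95th percentile was -0.37 to 0.01. Relative to that median, which has as many entities below it as above, 9 of the 10 genes were lower and ITGA5 was higher by 0.13. Several of the 9 were near it: ITGB6 at -0.009, ITGB5 at -0.02, ITGA3 at -0.03 and ITGB4 at -0.05 from it. The standard deviation over the well-expressed entities was 0.13. ITGB8 was at the floor with SPRR1A. ITGA6 had a lower position than the other well-expressed members, with 6.26% of entities below it, and ITGA2 stood at 12.6% and ITGB1 at 14.9%. The part of the share taken by the SPRR1A transcript itself is given above, and with it removed from the TPM total the median of the 10 genes was -0.10.

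**Figure D2:**
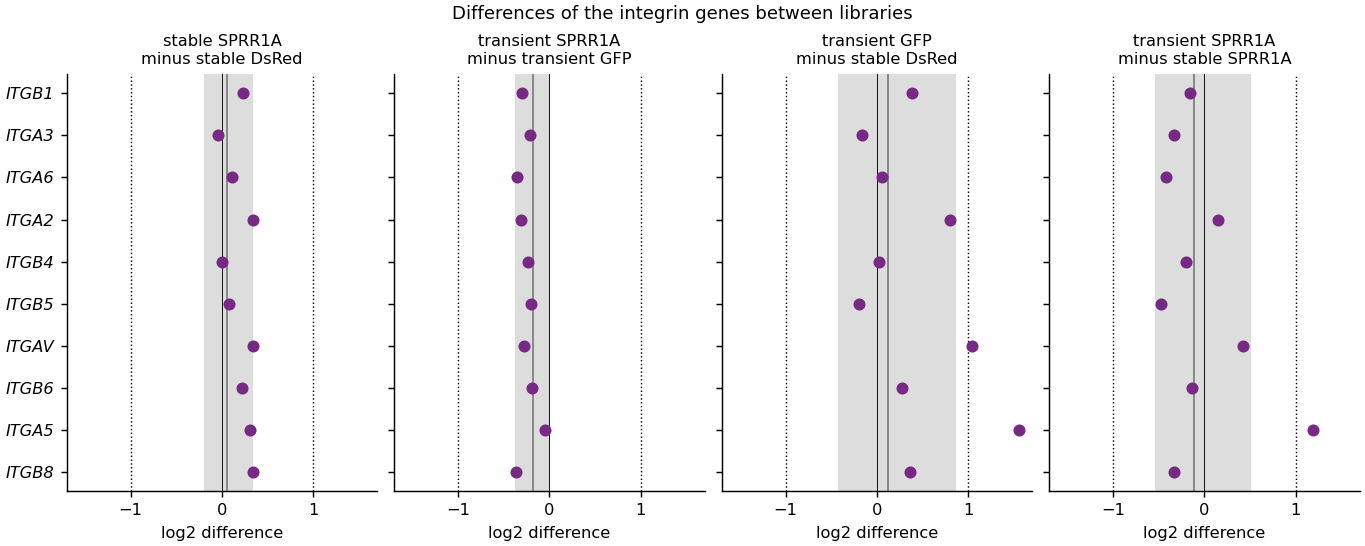
Log2 difference of each of the 10 integrin genes, with a panel for each comparison. The panels show SPRR1A against control in each model, then transient against stable for the control and for the SPRR1A libraries. Dotted lines mark the 2-fold threshold, shading the middle 90% of all well-expressed entities and a grey line their median. Against control, the stable differences lie between -0.05 and 0.34 and the transient ones between -0.36 and -0.05, all inside the threshold. Between the models ITGA5, at 1.55 (controls) and 1.19 (SPRR1A), and ITGAV, at 1.04 (controls), lie past it.

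Ratios between subunits within a library do not depend on its total, and they are given here for RNA. ITGA3 made up 54.1% (SPRR1A) and 58.4% (DsRed) of the TPM of the 5 alpha subunits in the stable pair, and 49.6% (SPRR1A) and 47.8% (GFP) in the transient pair. ITGA6 held 21.7% to 25.1% and ITGA2 13.7% to 21.9%, so the laminin and collagen receptors made up most of the alpha RNA. ITGAV was 3.61% and 2.99% of it in the stable libraries and 5.60% and 5.64% in the transient ones. ITGA5 was 0.689% and 0.583% in the stable libraries and 1.82% and 1.57% in the transient ones, which left the fibronectin receptor a minor component in each library. Among the 5 beta subunits ITGB1 held 72.3% to 77.3%, ITGB4 12.5% to 15.0% and ITGB5 6.66% to 9.28%. ITGB6 kept to a narrow range of 3.46% to 3.68%, and ITGB8 reached at most 0.128%.

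**Figure D3:**
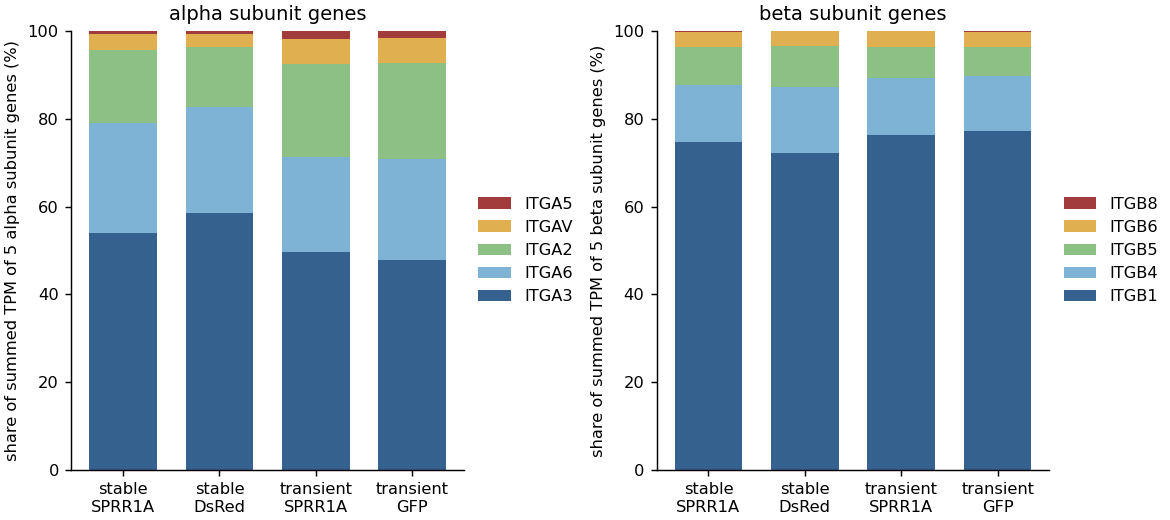
Share in percent of each alpha subunit in the summed TPM of the 5 alpha subunits and of each beta subunit in that of the 5 beta subunits, for each of the 4 libraries. ITGA3 and ITGB1 take the largest shares in every library, and the ITGA2, ITGAV and ITGA5 shares are larger in the transient libraries than in the stable ones.

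Summed over the genes, alpha and beta RNA were nearly equal, with a ratio of 0.949 (SPRR1A) and 1.03 (DsRed) in the stable pair and 0.934 (SPRR1A) and 0.926 (GFP) in the transient pair. The ratio of ITGA6 to ITGB4, its hemidesmosomal partner, was 1.82 (SPRR1A) and 1.68 (DsRed), and 1.57 (SPRR1A) and 1.72 (GFP). ITGA6 was therefore above ITGB4 everywhere, and SPRR1A cells had the higher ratio in the stable model and the lower in the transient model. The sum of ITGB5 and ITGB6 exceeded ITGAV by 3.55-fold (SPRR1A) and 4.13-fold (DsRed) in the stable pair, and by 2.04-fold (SPRR1A) and 1.94-fold (GFP) in the transient pair. ITGAV RNA was thus below the sum of these beta subunits in every library, before ITGB1, its further partner, is counted. ITGA3 exceeded ITGA2 by 3.26-fold and 4.26-fold in the stable libraries and by 2.33-fold and 2.18-fold in the transient ones.

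The larger differences lay between the models. Between the control libraries, transient GFP minus stable DsRed, 2 of the 10 genes passed the threshold, ITGA5 with a log2 difference of 1.55 and ITGAV with 1.04, and ITGA2 came next with 0.80. After centring on the median of the well-expressed entities ITGAV, at 0.92, no longer passed, whereas ITGA5 did, at 1.43. All entities were more spread in this comparison, with 7.52% of 13761 entities above the floor past the threshold and 3.46% of 9810 well-expressed ones. ITGA5 exceeded the difference of 99.4% of the well-expressed entities, ITGAV 97.2% and ITGA2 93.7%. The genes below 0 were ITGA3 at -0.17 and ITGB5 at -0.20, and the hemidesmosomal pair was close to 0, with ITGA6 at 0.05 and ITGB4 at 0.02. The median of the 10 genes was 0.32 beside 0.12 over all well-expressed entities.

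Between the SPRR1A libraries, transient minus stable, ITGA5 alone of the 10 genes passed the threshold, with a log2 difference of 1.19 that exceeded 99.3% of the well-expressed entities. The background was 3.59% of 13549 entities above the floor and 1.39% of 9843 well-expressed ones. ITGAV stood at 0.43 and ITGA2 at 0.15, whereas ITGB5, at -0.48, was the lowest and had 8.02% of entities below it. The median of the 10 genes was -0.18 beside -0.11 over all. The models differ in vector, fluorescent control protein, method of gene transfer and culture, and these cannot be told apart here. Each of these comparisons also shares its libraries with the SPRR1A comparisons above.

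ITGA5 was the member with the widest range over the 4 libraries, and the entities whose profile was closest to it were sought among 9657 others that reached a TPM of 5 in every library. Likeness was the root mean square distance between log2 values, each gene centred on its own mean over the 4 libraries. The 5 closest were IL1B at a distance of 0.035, IL1A at 0.048, IL1RN at 0.052, ECM1 at 0.068 and HERPUD1 at 0.068. IL1A and IL1B encode the interleukin-1 cytokines and IL1RN their receptor antagonist, ECM1 encodes a secreted matrix protein and HERPUD1 a protein of the endoplasmic reticulum stress response. Their log2 differences between the control libraries were 1.60 for IL1B, 1.52 for IL1A, 1.54 for IL1RN, 1.56 for ECM1 and 1.46 for HERPUD1, beside 1.55 for ITGA5. With 4 libraries, 2 of each model, any entity that separates the models by the same amount comes out as close, so the list describes a shape and nothing more.

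**Figure D4:**
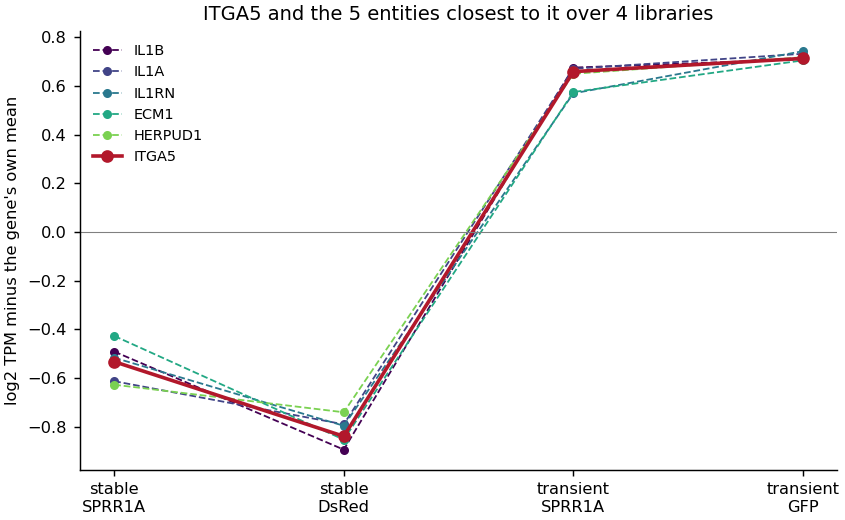
Log2 TPM centred on the mean of each gene over the 4 libraries, for ITGA5 and the 5 entities closest to it. All 6 lines are low in both stable libraries and high in both transient ones.

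Few of the remaining integrin genes had a value above the floor. Of 16 other subunit genes, 13 were listed at 0 in all 4 libraries. ITGAE, the alpha subunit of the E-cadherin receptor, had a TPM of 11.1 (SPRR1A) and 11.4 (DsRed) in the stable pair and of 9.52 (SPRR1A) and 10.9 (GFP) in the transient pair. ITGA1, a second collagen-binding partner of ITGB1, had 7.82 and 5.27, and 7.92 and 10.2, in the same order, and its log2 differences of 0.57 and -0.37 had the same signs as those of ITGA2. ITGA7, a laminin-binding subunit of muscle, was above the floor only in transient GFP cells, with a log2 TPM of 0.24. None of the 16 passed the threshold in either SPRR1A comparison.

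The ligands, adaptors and partners of these receptors were followed in 10 lists with 90 genes in all. In the stable model 74 of the 90 were above the floor, 2 passed the threshold as higher and 1 as lower, and the median log2 difference was 0.09. Of these 74 genes, 57 were higher with SPRR1A and 17 lower. In the transient model 73 were above the floor, 0 passed the threshold, 72 were lower and 1 was higher, with a median of -0.19. These medians stood beside 0.06 and -0.18 over all well-expressed entities. Of the latter, 64.4% were higher with SPRR1A in the stable model and 94.1% lower in the transient model. The threshold was passed by 0.947% of 13310 entities above the floor in the stable pair and 0.889% of 13717 in the transient pair. Among well-expressed entities these shares were 0.0915% and 0.0591%.

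**Figure D5:**
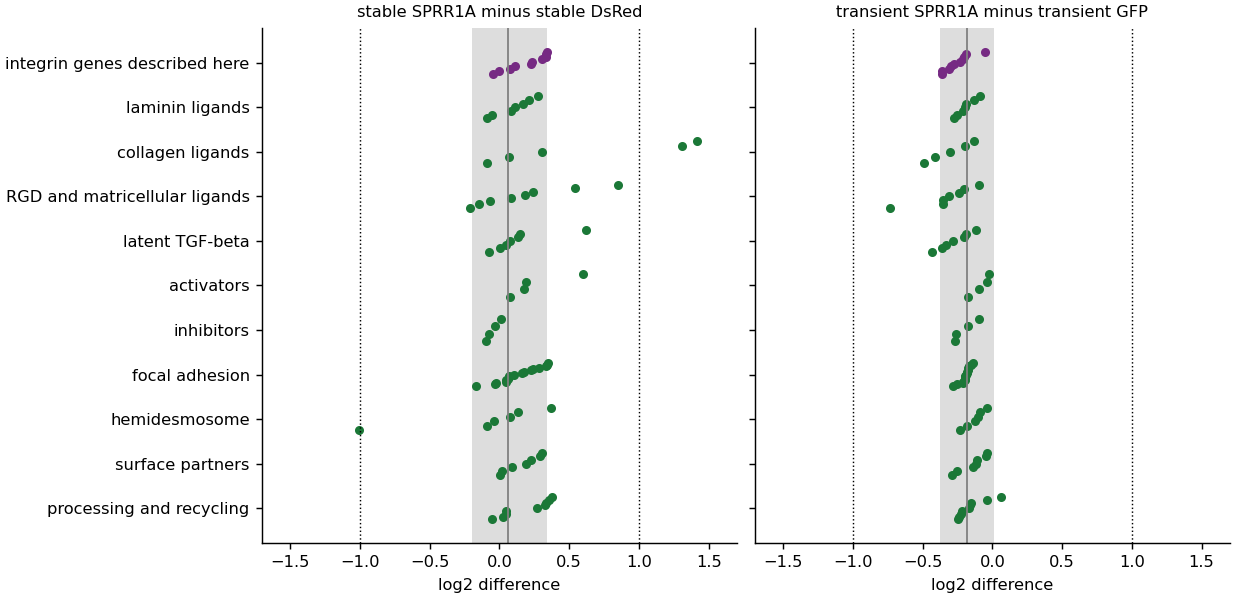
Log2 difference between SPRR1A and control in both models. Each point is a gene above the floor, from the 10 integrin genes or the lists of ligands, adaptors and partners. Dotted lines mark the 2-fold threshold. Shading marks the 5th to 95th percentile of all well-expressed entities and a grey line their median. COL4A1 and COL4A2 in the collagen list, at 1.31 and 1.42, and KRT14 in the hemidesmosome list, at -1.004, are the points past the threshold, all in the stable model.

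The genes past the threshold were in the collagen and hemidesmosome lists. COL4A1 and KRT14 were below a TPM of 5 in both stable libraries, so of these genes only COL4A2 was well-expressed there. COL4A1 and COL4A2, the chains of the basement membrane collagen that ITGA2 with ITGB1 can bind, stood at log2 TPM of 2.31 and 4.05 with stable SPRR1A and at 0.997 and 2.63 with DsRed, differences of 1.31 and 1.42. In the transient pair they stood at 2.005 and 3.98 with SPRR1A and 2.41 and 4.10 with GFP, so stable DsRed was the lowest of the 4 libraries for both genes and stable SPRR1A lay between the transient ones. The 5 collagen genes above the floor, of 7, had median log2 differences of 0.31 (stable) and -0.30 (transient). KRT14, a basal keratin of stratified epithelium, stood at 1.03 with stable SPRR1A and 2.04 with DsRed, a difference of -1.004 that was just past the threshold, and at 1.83 and 1.87 in the transient cells. The other hemidesmosome genes, all 6 of the list being above the floor with medians of 0.02 and -0.11, were within 2-fold, among them COL17A1, a transmembrane collagen that meets ITGA6 and ITGB4 in the hemidesmosome, with a TPM of 159, 168, 256 and 279.6 in the order stable SPRR1A, DsRed, transient SPRR1A, GFP, which is kept below. KRT5, the keratin partner of KRT14, was the highest of the list, with a TPM of 993, 769.5, 1111 and 1258 and log2 differences of 0.37 and -0.18. CD151, the tetraspanin that binds the laminin receptors directly, differed by -0.04 and -0.09, and DST, which ties keratin to ITGB4, by 0.07 and -0.23.

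Laminin chains, the ligands of ITGA3 and ITGA6, were above the floor for 7 of 11 genes and 0 passed the threshold, with medians of 0.11 and -0.20. LAMB3 was the highest, with a TPM of 221, 229, 316 and 346 and log2 differences of -0.05 and -0.13. LAMA5, the alpha chain of many adult basement membranes, differed by -0.09 and -0.28. Of the ligands with an RGD motif and the matricellular proteins, 8 of 11 were above the floor, with medians of 0.14 and -0.31 and again 0 past the threshold. THBS1, a matricellular glycoprotein that can activate TGF-beta, had a TPM of 291, 200.3, 239.9 and 284, with log2 differences of 0.54 and -0.24. CCN2 (listed as CTGF), a matricellular growth factor, had the most negative transient difference of the lists, -0.73, with a TPM of 5.17 with SPRR1A and 8.59 with GFP. FN1 and SPP1 were picked out after their values were seen, as ligands of ITGA5 and ITGAV. Between the control libraries the log2 difference was -0.98 for FN1 (fibronectin) and 3.14 for SPP1 (osteopontin). The fibronectin gene and ITGA5 thus differed in opposite directions. SPP1 had a TPM of 2.35 in stable DsRed cells, under the minimum of 5, and 20.7 in transient GFP cells. Between these libraries 6 of the 74 list genes above the floor passed the threshold as higher and 0 as lower. CCN1 (listed as CYR61), at 1.03, was among them. Of all 13761 entities above the floor, 7.52% passed it.

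Of the latent TGF-beta genes, the cargo of ITGAV with ITGB6 or ITGB8, 7 of 9 were above the floor, 0 passed the threshold and the medians were 0.08 and -0.28. TGFB1 itself had a TPM of 155, 150.5, 124 and 141, and TGFB2 differed by 0.00 and -0.44. The integrin activators, talin and the kindlins among them, were above the floor for 4 of 5 genes with medians of 0.18 and -0.07. FERMT1, the epithelial kindlin, had a TPM of 83.6, 73.9, 61.9 and 66.3. The inhibitors of activation, 4 of 4 above the floor, had medians of -0.06 and -0.22, with FLNA, an actin crosslinker that binds beta subunit tails, at 596, 628, 532 and 602. In neither list did a gene pass the threshold.

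Focal adhesion genes were above the floor for 17 of 20, with 0 past the threshold and medians of 0.10 and -0.19. ACTN4, an actin crosslinker, was the most abundant, with a TPM of 479, 456, 502 and 569. Among its other genes PXN, the adaptor paxillin, differed by 0.07 and -0.20, and CRK, an adaptor downstream of it, had the largest stable difference, 0.35, with -0.20 in the transient pair. Surface partners, among them tetraspanins and caveolin, were above the floor for 7 of 8, with medians of 0.19 and -0.12 and 0 past the threshold. SLC3A2, which binds integrin beta tails as the heavy chain of amino acid transporters, differed by 0.09 and -0.04. CD9, a tetraspanin, had the largest stable difference of these genes, 0.31, with -0.14 in the transient pair, and CD47, a partner of ITGAV integrins, the most negative transient one, -0.29, with 0.19 in the stable pair. Genes for integrin processing and recycling were above the floor for 9 of 9, with medians of 0.27 and -0.17 and 0 past the threshold. Among the well-expressed genes of this list NUMB, an endocytic adaptor, had the largest stable difference, 0.35, with -0.22 in the transient pair. SNX17, which returns ITGB1 to the surface, was the gene of the 10 lists that was higher in transient SPRR1A than in transient GFP cells, by 0.06.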

How the data were processed

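mRNA was sequenced from 4 PK-1 libraries, 1 for each condition. Libraries, of a stranded mRNA kit per the labels, were prepared and sequenced in paired-end mode by a service provider. Per the methods of the study, the authors used Strand NGS at its default settings to align the reads to the hg38 transcriptome, and deposited the log2 of TPM of each entity. The software version, the annotation and the use of strand in counting are not given in the sources used here. Groups were taken from the sample labels.

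From the deposited log2 values, differences between libraries were computed, with a threshold of 2-fold as in the study. Well-expressed entities reached a TPM of 5 in each library of a pair, and percentiles are over these without SPRR1A. Depth in reads is unknown, so no counting interval can be given. Differences with 1 library for each group have no test.

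The members and lists were chosen with earlier results of these data known. From each list the text names genes past the threshold, the highest expressed (up to 3) and the largest difference in each comparison among well-expressed genes (with FN1 and SPP1 picked after their values were seen), and for the member of widest range the 5 closest profiles, and not every gene this rule selects is reported here. Positions and promoters are from RefSeq GRCh38.p14 (8 of 10 members matched; ITGA3 and ITGB4 had no entry). Alternatives were log2(TPM + 1), log2(TPM + 0.1), centring on the median, leaving SPRR1A out of the total, and the minimum TPM. The calculations were tested on simulated data. Python 3.11.15, numpy 2.4.6, pandas 2.3.3 and matplotlib 3.10.9 were used.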

Additional observations from a re-analysis of the deposited data

Results flagged for a closer look

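For 8 of the 10 integrin genes the log2 difference between SPRR1A and control had opposite signs in the models, higher in SPRR1A cells in the stable model and lower in the transient model. The stable difference exceeded the transient one by 0.65 for ITGA2, 0.36 for ITGA5, 0.47 for ITGA6, 0.61 for ITGAV, 0.53 for ITGB1, 0.28 for ITGB5, 0.42 for ITGB6 and 0.70 for ITGB8. With a single library for each condition, this difference was not tested. Over the 9658 entities that reached a TPM of 5 in every library, 65.3% also had opposite signs. In 62.5% the direction was the same as in these genes, and the median of the same quantity was 0.24. With each comparison centred on the median of its well-expressed entities, 7 of the 8 genes still had opposite signs, and ITGA5 did not, at 0.25 and 0.13. Among those counted as opposite, ITGB5 was close to 0 at 0.017 and -0.022, as was the transient value of ITGB6, -0.009. Centring left the transient value of ITGB8 at -0.36, because its SPRR1A level is at the floor. The share of all entities with opposite signs after centring is not given here.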

How the results depend on the processing

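No paired analysis was possible because there is 1 library for each condition, and for the same reason no library could be left out. No direction of a called value was reversed under the alternatives run, but the called values were only those of ITGA5 and ITGAV between the models. Some values inside the threshold did change sign. The transient difference of ITGA5 went from -0.05 to 0.13 centred and to 0.10 with SPRR1A left out of the total. With SPRR1A left out, ITGB6 between the SPRR1A libraries went from -0.14 to 0.01. Between the control libraries, centring took ITGA6 from 0.05 to -0.07 and ITGB4 from 0.02 to -0.10. With values at the floor set to a TPM of 0 before log2(TPM + 1), an alternative added after the data were seen, 1 gene passed the threshold in the stable comparison, 1 in the transient one, 3 between the control libraries and 2 between the SPRR1A libraries. The added gene was ITGB8 each time, at 1.18, -1.19, 1.19 and -1.18, which rests on whether its level in 2 libraries is 0 or just under the floor. The transient median of -0.26 became -0.073 after centring and -0.10 with SPRR1A left out of the total, by construction of these scalings. Centred, 1 gene (ITGA5) and not 2 passed the threshold between the control libraries, with ITGAV at 0.92. Adding 0.1 to the TPM moved 0 of 40 single-gene values by more than the spread of all entities, and adding 1 moved 1 of 40. Centring and leaving out SPRR1A moved 9 of 40 each. Under both settings these were the transient differences between SPRR1A and GFP of every member except ITGB8. Each setting shifts those values together by 1 constant, which is larger than the standard deviation of that comparison, 0.13. The TPM minimum of 5 only drops genes, so it could not move any of the 36 values kept. Depth could not be read from these values.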
